A study of Rattus norvegicus with 35 samples.

Results

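Wild-type (WT) rats given the multi-walled carbon nanotube Mitsui-7 were compared with WT rats given the vehicle, Pluronic. The comparison held 6 arrays of exposed lung and 6 of control lung, chosen by their titles from the 35 arrays of the study, each with RNA of 1 rat. All were female Sprague Dawley rats, 12 weeks old when the instillations began, and material was instilled into the trachea weekly for 4 weeks. The exposed rats received 0.25 mg each, and the labels do not say whether that is the amount per instillation or in all. Total RNA came from the accessory lobe of the lung at 3 days post exposure, with RNA integrity numbers above 6.90, and 100 ng was labelled with Cy3. A further 6 WT rats given another multi-walled nanotube, NM-403, at the same labelled dose, and rats heterozygous for p53 given vehicle (6) or Mitsui-7 (6), were used for the last comparisons.

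Long, stiff carbon nanotubes persist in the airspaces, where macrophages engulf them and, where a fibre is too long to be enclosed, remain activated. Monocytes are recruited by chemokines, airway epithelium answers type 2 cytokines by making mucus, and persistent injury is followed by matrix deposition. Mitsui-7 is the reference long, rigid nanotube for such responses and is classed as a possible human carcinogen.

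Levels are log2 signals relative to the 75th percentile of the array's own spots, so that a difference of 1 is a 2-fold change. A standard error after a difference (±) comes from a model with slide as a block, fitted over all 35 arrays with 6 rats in each group named here. A gene was called where limma's Benjamini-Hochberg adjusted p was under 0.05 over all 24473 genes tested. The 75th percentile of log2 intensity ran from 10.3 to 10.9 on control arrays and from 10.03 to 10.59 on exposed arrays (difference -0.20, two-sided exact permutation p = 0.141). Between 70.9% and 74.6% of spots were well above background on control arrays and between 71.2% and 86.4% on exposed arrays (two-sided exact permutation p = 0.535). The highest share, 86.4%, belonged to Mitsui-7 replicate 5, and without that array 4534 genes were called in place of 5432. Without Mitsui-7 replicate 4, the array with the lowest level of endothelial genes, 3755 were called. The lung's defining epithelial markers were well above background on all 12 arrays. Among them Sftpc, the surfactant protein of alveolar type 2 cells, ran from 6.36 to 6.61 on control arrays and from 6.38 to 6.71 on exposed arrays, and Ager, of alveolar type 1 cells, from 5.81 to 6.07 and from 5.76 to 6.06.

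Mitsui-7 changed the level of 5432 genes in WT lung, 22.2% of those tested: 2852 rose (11.7%) and 2580 fell (10.5%). The rises were larger than the falls. Of 1017 called genes that changed at least 2-fold 949 rose and 68 fell, and of those that changed at least 4-fold 253 rose and 2 fell. A further 3244 called genes changed by less than 1.5-fold, and the median difference over all genes was 0.02. In 1814 genes (7.41%) all 6 exposed arrays lay above or below all 6 controls, and 1106 of these lay above. The share of higher among called genes depended on the scaling: it was 52.5% here, 38.36% after quantile normalization and 34.78% with each array centred on its median. These 2 alternatives put the all-gene median at -0.07 and -0.06, and small changes are to be read against that shift. With the authors' deposited log2 values the share was 33.21%, over a smaller set of 9803 genes.

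The largest rise was in Spp1, which encodes osteopontin, a secreted phosphoprotein of activated macrophages. Its level ran from -4.19 to -2.00 on control arrays (median -2.72) and from 2.84 to 3.79 on exposed arrays (median 3.55), so the lowest exposed rat lay far above the highest control. The difference was 6.32 ± 0.32, or 79.8-fold (adjusted p = 1.47e-13). Mt3, a metallothionein best known from brain, ran from -7.15 to -6.33 in controls (median -6.44) and from -2.23 to 0.20 in exposed lungs (median -0.64), a 47.6-fold rise of 5.57 ± 0.34 (adjusted p = 4.74e-12). The groups were again apart. The metallothioneins of most tissues moved far less: Mt2A rose by 0.54 ± 0.10, and Mt1 differed by 0.25 (adjusted p = 0.0971). Il24, a cytokine of the interleukin-10 family that signals to epithelium, ran from -7.87 to -6.73 in controls (median -7.16) and from -3.28 to -2.20 after exposure (median -2.72). It rose by 4.44 ± 0.30 (adjusted p = 2.07e-11), and 4 of 6 control arrays were well above background. The groups did not overlap.

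**Figure D1:**
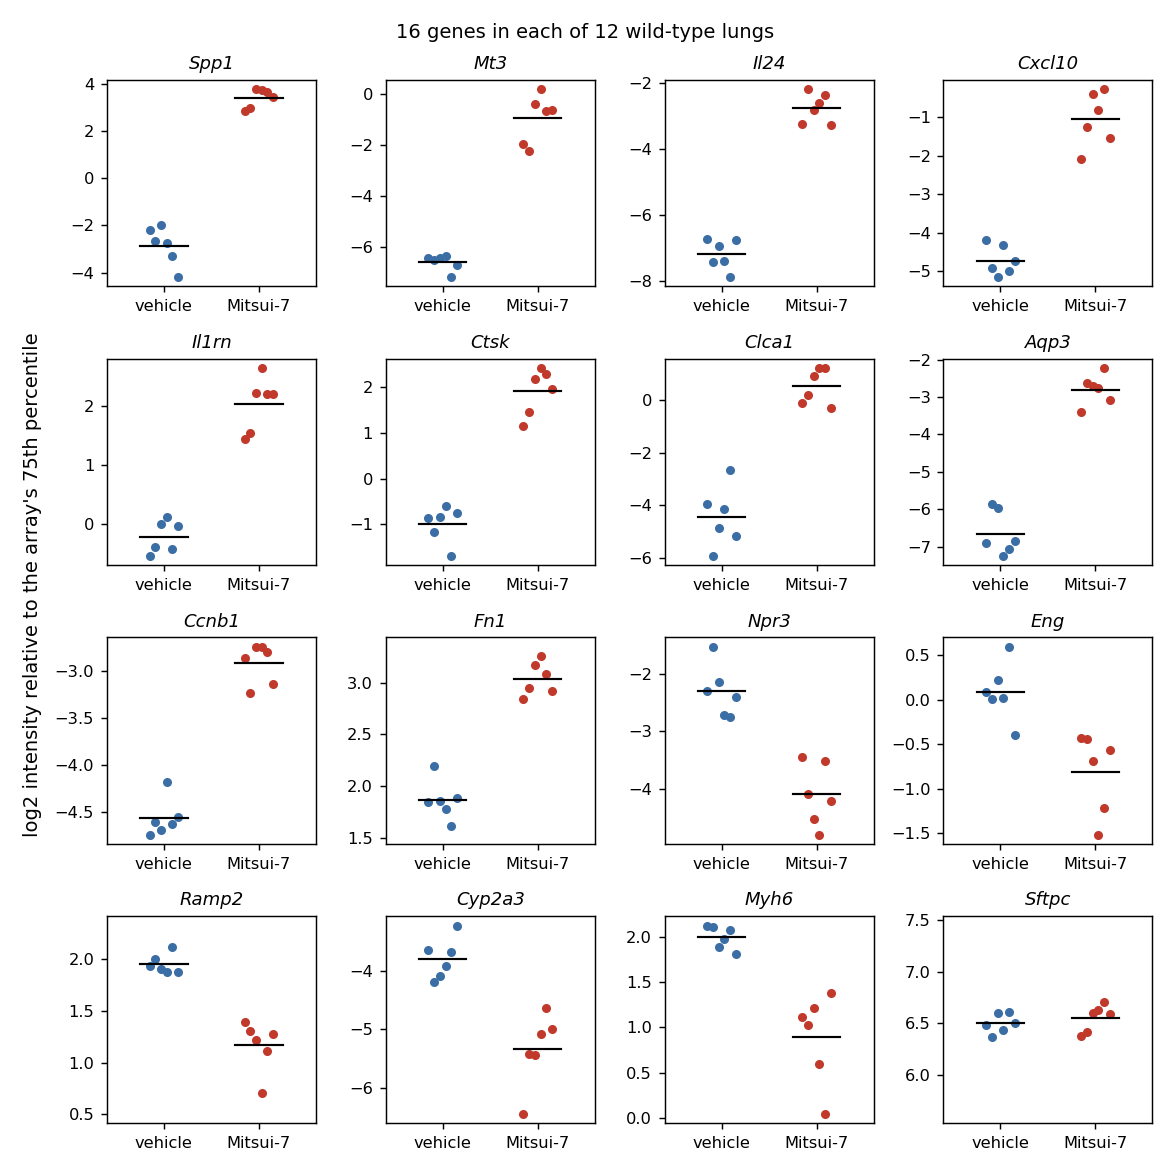
Level of 16 genes on the 6 vehicle and 6 Mitsui-7 arrays of WT lung, as log2 signal relative to the 75th percentile of the array. Each point is 1 rat, the bar is the group mean, and the vertical axes differ between panels. Spp1, Mt3 and Il24 separate the groups without overlap, while the surfactant gene Sftpc runs over the same range in both.

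Several of the strongest rises were in genes that no control array detected. For these the fold is a lower bound, computed against the lowest signal that counted as well above background on each control array. Cd5l, a secreted scavenger protein of macrophages, was at least 15-fold higher (adjusted p = 6.28e-08), from -5.32 to -2.34 on exposed arrays. Acod1, the mitochondrial enzyme that makes itaconate in activated macrophages, was at least 9.94-fold higher (adjusted p = 6.59e-08). Klra5, a lectin-like receptor of the killer cell family, was at least 7.11-fold higher (adjusted p = 2.45e-09). In all, 106 called genes were above background on no control array, and 5 called genes were so on no exposed array.

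Other large rises were in Prss30, Sctr and Slc1a6. Prss30, a serine protease, ran from -4.20 to -3.70 in controls (median -4.13) and from -0.96 to 0.29 after exposure (median -0.26), a 14.2-fold rise (3.83 ± 0.20, adjusted p = 1.67e-13) with narrow spread in both groups and no overlap. Sctr, the secretin receptor, was at least 14-fold higher than in controls, none of which was above background (adjusted p = 2.52e-11), and the glutamate transporter Slc1a6 was likewise at least 6.54-fold higher (adjusted p = 4.47e-09).

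Falls were smaller than the largest rises. Zbtb16, a transcription factor induced by glucocorticoids, ran from -1.98 to 0.70 in controls (median -1.36) and from -2.92 to -2.12 after exposure (median -2.74), and fell by 1.54 ± 0.36 (adjusted p = 0.00235), with no overlap. Aox1, aldehyde oxidase, fell by 1.39 ± 0.32 (adjusted p = 0.00201), and Acer2, an alkaline ceramidase, by 1.15 ± 0.18 (adjusted p = 4.37e-05), from between 0.91 and 1.62 to between -0.50 and 0.63. Kcnip2, a potassium channel subunit of heart muscle, ran from -1.74 to -1.36 in controls and from -3.15 to -2.36 after exposure, and fell by 1.16 ± 0.13 (adjusted p = 3.04e-07). Acer2 and Kcnip2 separated the groups. The calls of RT1-O1 (-2.02 ± 0.71) and Bpifa1 (-1.79 ± 0.63) changed when single arrays were left out. RT1-O1 lost its call without any control array or without Mitsui-7 replicate 1, 4 or 5 (adjusted p up to 0.158). Bpifa1 lost its call without control replicate 1, 3, 5 or 6 or Mitsui-7 replicate 1, 4 or 5 (adjusted p up to 0.115).

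Among chemokines, monocyte attractants and interferon-induced attractants of lymphocytes rose, while the main neutrophil attractants did not. Of 18 CC chemokines tested 9 rose and 2 fell (Ccl6 and Ccl27), with a median of 0.69. Ccl7, a monocyte attractant acting on CCR2, ran from -4.01 to -2.66 in controls (median -3.53) and from -1.38 to -0.62 after exposure (median -1.20), a 5.07-fold rise (2.34 ± 0.32, adjusted p = 4.28e-06). Its relatives Ccl12 (2.25 ± 0.39) and Ccl2 (1.91 ± 0.29) rose as well, as did Ccl9 (1.71 ± 0.25), the neighbour of the macrophage inflammatory proteins. For all 4 genes every exposed rat lay above every control. A single fall was called when control replicate 2, 3 or 6 or Mitsui-7 replicate 3, 4, 5 or 6 was left out; Ccl6 itself fell by 0.61 and was called without each array.

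Of 16 CXC chemokines 6 rose and 2 fell around a median of 0.09. Cxcl10, the interferon-induced ligand of CXCR3, ran from -5.16 to -4.19 in controls (median -4.84) and from -2.08 to -0.26 after exposure (median -1.03), a rise of 3.65 ± 0.32 (adjusted p = 3.51e-09). Cxcl11, another CXCR3 ligand, was above background on no control array and was at least 11-fold higher (adjusted p = 1.35e-08), and Cxcl9 rose by 1.23 ± 0.24. The receptor itself, Cxcr3, rose by 0.73. The neutrophil attractants went otherwise: Cxcl2 differed by -0.03, Cxcl3 by -0.24 and Cxcl6 by -0.15, none of them called. Cxcl1 fell by 0.73 ± 0.27 (adjusted p = 0.049989), and a single fall was called, with Cxcl14 (-0.74) still among the called genes, when control replicate 1, 2, 3, 5 or 6 or Mitsui-7 replicate 3, 4, 5 or 6 was left out.

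In the interleukin-1 family the antagonists Il1rn and Il18bp rose. Il1rn, the receptor antagonist, ran from -0.54 to 0.11 in controls (median -0.22) and from 1.44 to 2.64 after exposure (median 2.19), and rose 4.86-fold (2.28 ± 0.14, adjusted p = 3.24e-12). Il18bp, which neutralises interleukin-18, rose by 1.46 ± 0.16 (adjusted p = 2.70e-07). In neither gene did the groups overlap. Il1b (0.17, adjusted p = 0.587) and Il18 (0.05) were not called, and Il1a fell by 0.51 ± 0.13. Of the DNA and damage sensors that assemble inflammasomes, Aim2 rose by 1.29 ± 0.31 and the adaptor Pycard by 0.57, while Casp1 differed by -0.05. Over the 21 members tested 8 rose and 3 fell (1 fell without Mitsui-7 replicate 4). Tnf, the classical early cytokine, ran from -1.04 to -0.59 in controls and from -0.82 to -0.23 after exposure and was not called (0.16, adjusted p = 0.594).

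The type 2 list, the genes of allergic and anti-parasite responses, was dominated by 2 secreted effectors. Retnla, a small cysteine-rich protein of alternatively activated macrophages and epithelium, ran from -1.08 to 1.32 in controls (median -0.41) and from 2.30 to 3.39 after exposure (median 3.25), a 9.91-fold rise (3.31 ± 0.35, adjusted p = 1.24e-07). Chia, acidic chitinase, ran from 2.35 to 3.45 in controls (median 2.81) and from 4.49 to 5.04 (median 4.83), a 4.05-fold rise (2.02 ± 0.14, adjusted p = 4.79e-11). Both separated the groups. Of the upstream signals Il13 differed by 0.70 and was not called (adjusted p = 0.317, 3 of 6 control and 4 of 6 exposed arrays above background). Stat6 (-0.19) was not called either, and the receptor gene Il4r fell by 0.51. Arg1, an effector enzyme like Chia, was not called (-0.03). In all 5 of 24 members rose and 2 fell around a median of 0.11, and 3 rose without Mitsui-7 replicate 4. With all arrays 29.2% were called, beside 22.2% of all genes tested. The second fall was lost without control replicate 2, 4 or 5 or any exposed array other than replicate 4.

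Macrophage genes rose as a group. Of 20 monocyte and macrophage markers 13 rose and none fell, with a median of 0.71, and the same numbers were called when each of the 12 arrays was left out. The mean over the list, taken relative to the control mean, ran from -0.12 to 0.11 in controls and from 0.42 to 1.04 after exposure, with no overlap. In whole-lobe RNA more cells of a type and more RNA per cell cannot be told apart, here and for every cell type below. Itgam, the CD11b integrin chain of recruited myeloid cells, ran from -3.21 to -2.14 in controls (median -2.49) and from -0.90 to 0.23 after exposure (median -0.26), a 5.25-fold rise (2.39 ± 0.21, adjusted p = 5.28e-09). Cybb, the catalytic subunit of the phagocyte oxidase, rose by 1.19 ± 0.19 and Cd68, a lysosomal glycoprotein, by 1.02 ± 0.18. Csf1r, the receptor for macrophage colony-stimulating factor, did not differ by more than its error (0.06 ± 0.09), and Cd163, the haemoglobin scavenger, differed by -0.27 (adjusted p = 0.318).

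Of 16 markers of resident alveolar macrophages 5 rose and 2, Car4 (-0.89 ± 0.11) and Ccl6 (-0.61 ± 0.17), fell. Among the rises was Fabp4, a fatty acid carrier, which ran from -3.74 to -1.40 in controls (median -2.92) and from -0.90 to 0.75 after exposure (median -0.07), a rise of 2.55 ± 0.30 (adjusted p = 6.59e-07). Atp6v0d2, a subunit of the lysosomal proton pump, ran from -5.45 to -2.91 (median -4.13) and from -2.03 to -0.53 (median -1.37), a rise of 2.86 ± 0.48 (adjusted p = 8.61e-05). Both genes separated the groups. Pparg, the factor that fixes the identity of these cells, was not called (-0.07, adjusted p = 0.676), and the median of the list was 0.04.

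The genes of lipid-laden macrophages, which take up and carry cholesterol and fatty acids, rose for 11 of 25 members. Trem2, a lipid-sensing receptor, ran from -0.95 to -0.02 in controls (median -0.64) and from 0.90 to 1.99 after exposure (median 1.82), a 4.77-fold rise (2.25 ± 0.26, adjusted p = 3.39e-07). Gpnmb, a glycoprotein of lysosomes under load, rose by 1.25 ± 0.19 and Apoe by 1.03 ± 0.11, and in each case all exposed rats lay above all controls. Lgals3 (0.70 ± 0.11), Lpl (0.66 ± 0.15) and Cd36 (0.65 ± 0.15) rose less. The cholesterol exporters Abca1 (0.09) and Abcg1 (-0.23) and their regulator Nr1h3 (-0.28) were not called. The single fall was in Cyp27a1 (-0.37), and 2 or 3 members fell without control replicate 5 or 6 or Mitsui-7 replicate 1.

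Lysosomal genes rose for 24 of 41 members with no fall, a median of 0.33 and between 17 and 25 rises as each array was left out. One member also fell without control replicate 2 or Mitsui-7 replicate 2. Ctsk, a collagen-degrading protease of osteoclasts and giant cells, ran from -1.69 to -0.60 in controls (median -0.86) and from 1.14 to 2.41 after exposure (median 2.06), a 7.72-fold rise (2.95 ± 0.27, adjusted p = 1.04e-08). Smaller rises were found in Ctss (0.68 ± 0.13) and Ctsb (0.37 ± 0.09), and Ctsd differed by 0.18 (adjusted p = 0.311). The fusion genes of multinucleated giant cells were less uniform: 8 of 22 members rose and 3 fell. Ctsk, Atp6v0d2 and Mmp9 led the rises, while Dcstamp, the fusion receptor, differed by -0.05 (adjusted p = 0.918) and Acp5, tartrate-resistant acid phosphatase, by 0.02 (adjusted p = 0.937).

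**Figure D2:**
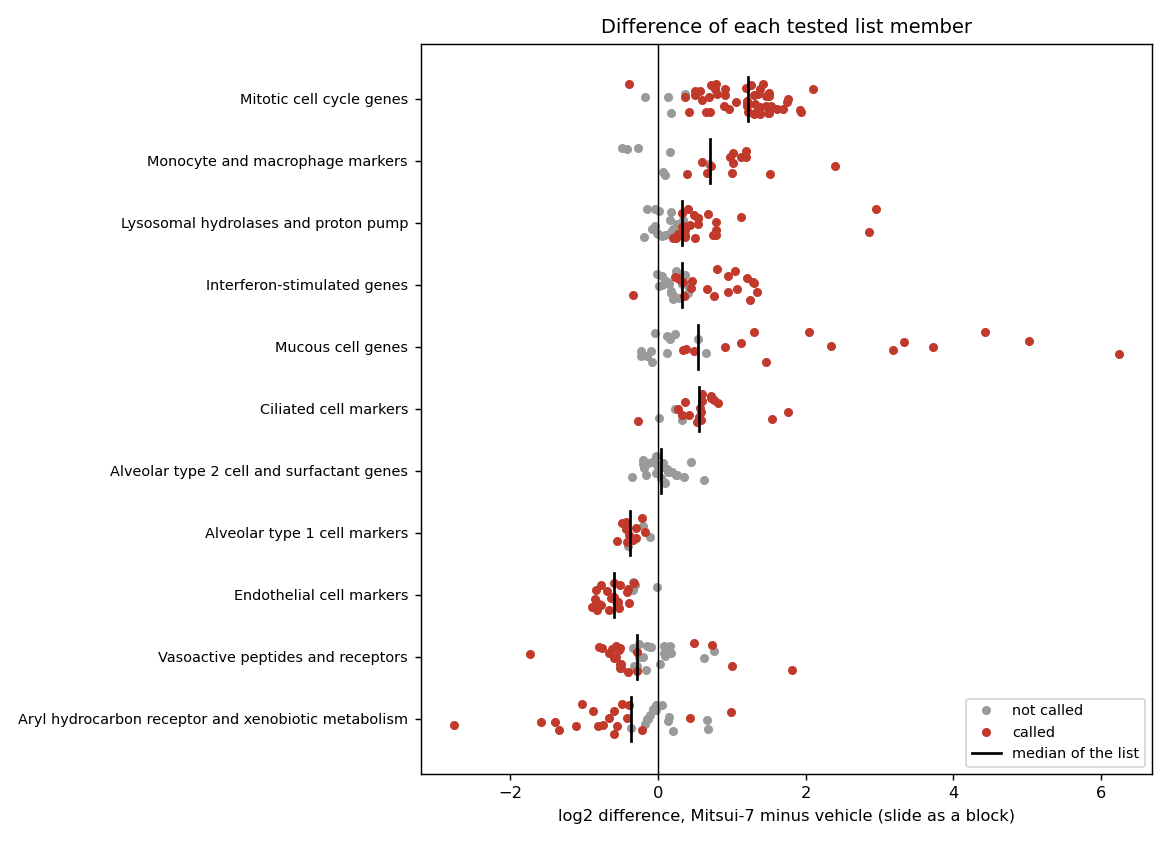
Difference between Mitsui-7 and vehicle in WT lung (log2) for each tested member of 11 gene lists. Each point is 1 gene, called genes are red, and the line marks the list's median. The median is 1.22 for mitotic genes and -0.59 for endothelial markers, and no member of the alveolar type 2 list is called.

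Interferon-stimulated genes rose for 19 of 41 members with a median of 0.33, between 13 and 21 as each array was left out. Ifit3, an antiviral protein of the tetratricopeptide family, ran from -4.23 to -3.30 in controls (median -3.48) and from -2.46 to -1.80 after exposure (median -2.10), a rise of 1.35 ± 0.21 (adjusted p = 3.75e-05). Irf7, the transcription factor that amplifies interferon production, ran from -0.20 to 0.68 (median 0.37) and from 1.0965 to 2.18 (median 1.6), a rise of 1.21 ± 0.20 (adjusted p = 9.40e-05). Oas1a, an oligoadenylate synthetase, rose by 0.67 ± 0.19 (adjusted p = 0.0102). The groups were apart in all 3. Irf9, a subunit of the factor that binds interferon response elements, was not called (0.13). Bst2 alone fell (-0.33) and lost the call without control replicate 1, 2, 3, 4 or 5 or Mitsui-7 replicate 2, 3, 4 or 6.

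The promoters of these genes are shown because most called members hold the interferon-stimulated response element, searched as GAAANNGAA on both strands from 250 bases before to 50 bases after the start. It was found in 12 of 15 called members with a RefSeq promoter (80%), in 13 of 19 of the members that were not called as rises (68.4%) and in 9.71% of all 33469 promoters. A match is a description of the sequence only. The runs below give the 250 bases before the start on the gene's own strand, from RefSeq on GRCr8, with matches in capitals. The Ifit3 promoter (chr1:241527076-241527325, plus strand) has 2 matches, 43 and 24 bases before the start. The Irf7 promoter (chr1:205800024-205800273, minus strand) has 1, at 68 bases, and that of Oas1a (chr12:41330216-41330465, plus strand) has 2 that overlap, at 41 and 35 bases.
Ifit3: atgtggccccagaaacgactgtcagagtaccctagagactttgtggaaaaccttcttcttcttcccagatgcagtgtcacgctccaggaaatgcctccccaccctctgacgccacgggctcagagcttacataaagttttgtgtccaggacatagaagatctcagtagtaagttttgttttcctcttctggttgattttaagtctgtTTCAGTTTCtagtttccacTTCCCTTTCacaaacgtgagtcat
Irf7: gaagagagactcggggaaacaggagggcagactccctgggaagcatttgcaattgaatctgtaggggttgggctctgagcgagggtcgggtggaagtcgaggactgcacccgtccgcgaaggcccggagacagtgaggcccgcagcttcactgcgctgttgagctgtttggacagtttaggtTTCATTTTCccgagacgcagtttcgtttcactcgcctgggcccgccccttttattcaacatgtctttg
Oas1a: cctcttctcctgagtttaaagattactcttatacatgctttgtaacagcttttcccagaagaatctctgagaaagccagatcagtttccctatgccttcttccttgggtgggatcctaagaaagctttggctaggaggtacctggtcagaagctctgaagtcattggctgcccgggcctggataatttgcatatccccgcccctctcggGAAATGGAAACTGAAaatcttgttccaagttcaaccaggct

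Complement, acute phase and antigen presentation genes rose beside the macrophage genes, and part of each list is made by macrophages. Of 33 complement genes 16 rose and none fell (median 0.31). C3ar1, the receptor for the C3a fragment, ran from -3.99 to -3.57 in controls (median -3.75) and from -2.79 to -1.65 after exposure (median -2.29), a rise of 1.48 ± 0.13 (adjusted p = 5.45e-09). The terminal components C6 (1.82) and C9 (1.42) and the inhibitors Cfi (1.29 ± 0.22) and Serping1 (1.25) rose too. C3, the central component, was not called (0.31, adjusted p = 0.230), nor was Cfb (0.23, adjusted p = 0.0727). Of 15 acute phase genes 8 rose. A2m, a broad protease inhibitor of rat acute phase, ran from -6.84 to -5.82 in controls (median -6.56) and from -3.65 to -2.39 after exposure (median -3.06), a 9.53-fold rise (3.25 ± 0.22, adjusted p = 2.07e-11). Lcn2 (0.26, adjusted p = 0.395) and Orm1 (-0.90, adjusted p = 0.151) were not called.

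Of 14 genes of MHC class II presentation 9 rose and none fell (median 0.42). Cd86, a costimulatory ligand, ran from -6.95 to -6.23 in controls (median -6.72) and from -5.26 to -4.50 after exposure (median -5.14), a rise of 1.61 ± 0.17 (adjusted p = 1.01e-07). RT1-Bb rose by 1.06 ± 0.27 and Cd74, the invariant chain, by 0.31 ± 0.09, while Ciita, the regulator of the whole set, was not called (0.17, adjusted p = 0.316). Of 29 Toll-like and pattern receptors 15 rose and Nod1 fell. Clec4e, the receptor for cell-wall glycolipids and dead cells, was above background on no control array and was at least 3.36-fold higher (adjusted p = 2.20e-05). Clec4a3 rose by 1.53 ± 0.13 and Tlr2 by 0.73 ± 0.14, and Tlr4 did not differ by more than its error (-0.07 ± 0.10).

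Among lymphocytes the clearest list was that of plasma cells, where 7 of 12 members rose and none fell (median 0.59). Jchain, which joins secreted IgA and IgM, ran from 0.39 to 1.63 in controls (median 0.82) and from 1.36 to 2.85 after exposure (median 2.63), a rise of 1.44 ± 0.31 (adjusted p = 0.00117), with overlap between the groups. Mzb1, an endoplasmic reticulum chaperone of these cells, rose by 1.22 ± 0.23 and separated the groups (-5.16 to -4.70 against -4.22 to -3.25). B cell markers moved little: none of 14 rose, and Ms4a1 (0.06) was not called. Bank1 alone fell (-0.63), a call lost without control replicate 4 or 5 or Mitsui-7 replicate 3 or 4. Of 19 T cell markers 4 rose, such as Icos (0.90 ± 0.12) and Cd4 (0.54 ± 0.11). In either direction 26.3% of the list was called, close to the 22.2% of all genes tested. In the authors' deposited values, where another probe may stand for the gene, Icos differed by -0.1512. The chains of the T cell receptor complex, Cd3e (0.27), Cd3g (-0.09) and Cd3d (-0.10), were not called. Tcf7 fell by 0.46, a call lost without control replicate 5 or Mitsui-7 replicate 3.

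Neutrophil markers overlapped the control level, with 3 of 16 higher, 1 lower (Fpr1, -0.80 ± 0.17) and a median of 0.14. Differences in the list ran from -0.80 to 1.5045, so the largest of them was positive. In either direction 25% of the list was called, beside 22.2% of all genes tested. S100a9, an abundant calcium-binding protein of neutrophils, ran from 0.78 to 2.47 in controls (median 1.32) and from 0.12 to 1.35 after exposure (median 0.94), and was not called (-0.58, adjusted p = 0.179). The groups overlapped, as they did for S100a8 (-0.47, adjusted p = 0.290). Mast cell markers rose for 7 of 12 members and fell for 2, but these counts rested on single arrays: 2 rose without control replicate 5 or Mitsui-7 replicate 3 or 4, and 4 without control replicate 6 or Mitsui-7 replicate 6. Mcpt2, a mucosal mast cell protease, was called without each array in turn (1.73 ± 0.34, adjusted p = 0.000455). Without Mitsui-7 replicate 4 neither fall was called, and 1 was called without control replicate 1, 2, 3, 5 or 6 or Mitsui-7 replicate 3 or 6.

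Cell division genes had the largest share of members called higher among the lists described here. Of 54 mitotic genes 49 rose, with a median of 1.22, and in 44 of them the groups did not overlap. The mean over the list ran from -0.20 to 0.32 in controls and from 0.92 to 1.30 after exposure. Ccnb1, the cyclin that drives entry into mitosis, ran from -4.74 to -4.17 in controls (median -4.61) and from -3.23 to -2.74 after exposure (median -2.83), a 3.07-fold rise (1.62 ± 0.16, adjusted p = 5.08e-08). Its partner kinase Cdk1 ran from -1.38 to -0.56 (median -1.15) and from 0.13 to 0.49 (median 0.41), a rise of 1.35 ± 0.16 (adjusted p = 3.83e-07). Top2a, the topoisomerase that untangles chromosomes, ran from -4.17 to -3.22 (median -3.95) and from -2.54 to -2.07 (median -2.27), a rise of 1.49 ± 0.16 (adjusted p = 1.16e-07). None of these groups overlapped. Cdc25b alone fell (-0.39), a call lost without control replicate 1 or 4 or Mitsui-7 replicate 3 or 4.

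DNA replication genes rose for 33 of 50 members with no fall and a median of 0.52, less than the mitotic list; 1 fell without Mitsui-7 replicate 2. Ccne1, the cyclin of S phase entry, ran from -5.39 to -4.48 in controls (median -4.88) and from -3.56 to -2.79 after exposure (median -3.09), a rise of 1.80 ± 0.15 (adjusted p = 1.21e-09). The helicase subunits Mcm5 (1.07 ± 0.16) and Mcm2 (0.45 ± 0.09) rose, and Pcna, the sliding clamp, was not called (0.22, adjusted p = 0.0544). Of 49 DNA repair genes 16 rose, among them Exo1 (1.22 ± 0.11) and Brca1 (0.74 ± 0.11). The 3 that fell were Xrcc5 (-0.42), Ercc1 (-0.25) and Xpa (-0.21). A single fall was called without control replicate 2, 3 or 5 or Mitsui-7 replicate 4 or 6. Of 38 p53 targets 8 rose and 3 fell, with a median of -0.02. That is 28.9% called, beside 22.2% of all genes tested. Cdkn1a (0.70 ± 0.09), Pmaip1 (0.74 ± 0.12) and Mdm2 (0.28 ± 0.06) were among the rises. Only 1 of the falls was called without control replicate 2, 3 or 5 or Mitsui-7 replicate 3, 4 or 5.

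The promoters of mitotic genes were searched for the cell cycle homology region (CHR, TTTGAA) and the CCAAT box (CCAAT), both on either strand, and 3 of them are shown for where these letters lie. The CHR was found in 31 of 43 called members with a promoter (72.1%) and in 18.3% of all promoters, and the CCAAT box in 28 of 43 (65.1%) and in 37.5% of all. In the members not called the CHR was in 3 of 5 (60%) and the CCAAT box in 5 of 5. These letters are short, and the share of all promoters gives how often they occur anywhere. In the runs below capitals mark both motifs. The Ccnb2 promoter (chr8:79981659-79981908, minus strand) has the CHR 214 and 43 bases before the start and CCAAT boxes at 134, 101 and 68. The Cdk1 promoter (chr20:19265043-19265292, plus strand) has the CHR at 72 and 16 and CCAAT boxes at 210, 81 and 49. The Top2a promoter (chr10:84473094-84473343, minus strand) has the CHR at 22 and CCAAT boxes at 239, 201, 161 and 57. Ccnb2 itself rose by 1.30 ± 0.19 (adjusted p = 1.95e-05), from between -2.93 and -1.73 in controls to between -1.45 and -0.64.
Ccnb2: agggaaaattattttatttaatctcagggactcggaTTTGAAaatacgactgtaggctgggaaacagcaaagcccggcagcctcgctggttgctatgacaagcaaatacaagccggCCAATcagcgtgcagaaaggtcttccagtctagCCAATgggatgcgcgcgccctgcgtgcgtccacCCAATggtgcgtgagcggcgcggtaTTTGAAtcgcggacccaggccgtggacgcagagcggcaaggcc
Cdk1: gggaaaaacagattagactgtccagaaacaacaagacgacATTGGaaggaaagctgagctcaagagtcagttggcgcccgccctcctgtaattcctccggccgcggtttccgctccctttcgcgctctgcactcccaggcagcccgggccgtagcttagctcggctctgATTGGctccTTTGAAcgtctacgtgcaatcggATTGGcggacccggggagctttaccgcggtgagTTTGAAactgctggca
Top2a: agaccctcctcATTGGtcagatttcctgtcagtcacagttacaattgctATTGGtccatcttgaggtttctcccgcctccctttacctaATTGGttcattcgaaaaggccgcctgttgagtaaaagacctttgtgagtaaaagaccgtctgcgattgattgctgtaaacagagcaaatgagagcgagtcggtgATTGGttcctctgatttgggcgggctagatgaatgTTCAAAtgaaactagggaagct

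**Figure D3:**
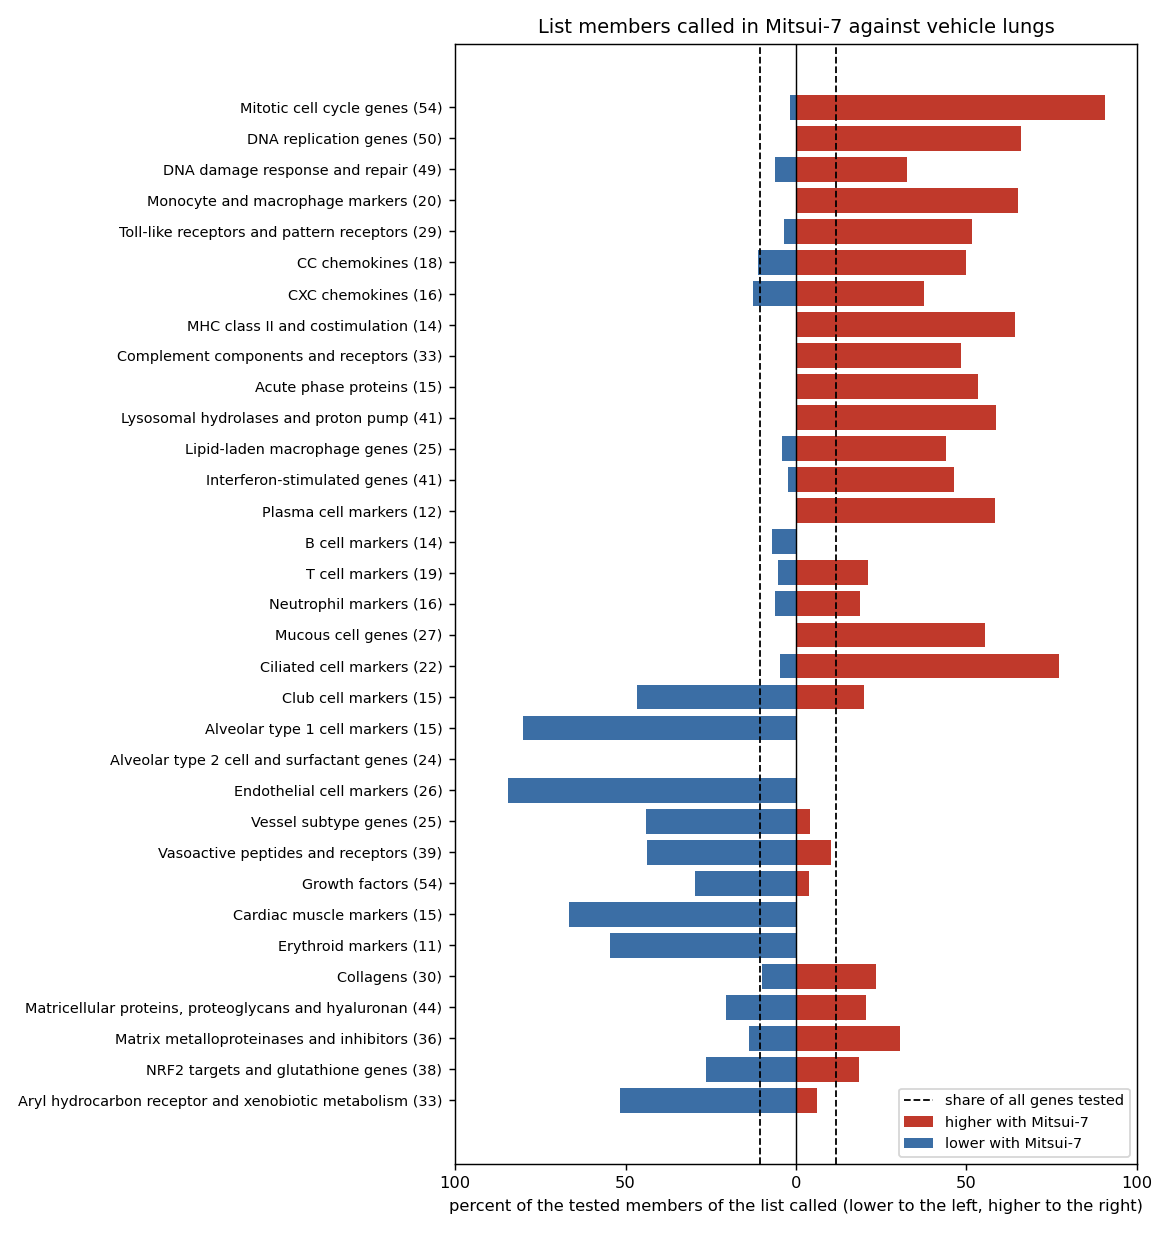
Percent of tested members called higher (right) and lower (left) in Mitsui-7 against vehicle WT lung for 33 gene lists. The dashed lines mark the shares over all genes, 11.7% higher and 10.5% lower. Mitotic genes have 49 of 54 members called higher and endothelial markers 22 of 26 called lower.

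Of 27 mucous cell genes 15 rose and none fell (median 0.54), and the mean over the list ran from -0.31 to 0.50 in controls and from 0.99 to 1.69 after exposure. Clca1, a secreted regulator of goblet cell chloride and mucus, ran from -5.92 to -2.66 in controls (median -4.49) and from -0.31 to 1.23 after exposure (median 0.58), a 32.6-fold rise (5.03 ± 0.49, adjusted p = 2.17e-08). Agr2, the disulfide isomerase needed to fold mucins, ran from -3.33 to -2.01 (median -2.71) and from -0.74 to -0.07 (median -0.35), a 5.09-fold rise (2.35 ± 0.15, adjusted p = 6.53e-12). Ern2, the stress sensor restricted to mucous epithelium, ran from -7.73 to -6.54 (median -6.88) and from -3.56 to -3.10 (median -3.41), a rise of 3.73 ± 0.21 (adjusted p = 9.44e-13). In each the groups were apart. The mucins Muc5b (4.43 ± 0.46, 2 of 6 control arrays above background) and Muc4 (3.19 ± 0.29) rose, while Muc1 was not called (0.12). Itln1, a lectin of mucous cells, varied most: it ran from -9.47 to -2.15 in controls and from -3.95 to 3.85 after exposure, and with this overlap it rose by 6.24 ± 1.56 (adjusted p = 0.00463).

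Ciliated cell genes rose for 17 of 22 members, with a median of 0.56. The largest changes were in genes that act while cilia are being built. Deup1, which multiplies centrioles, ran from -5.66 to -4.66 in controls (median -5.33) and from -3.87 to -3.28 after exposure (median -3.60), a 3.39-fold rise (1.76 ± 0.14, adjusted p = 5.65e-10), and Ccno, a cyclin needed for the same step, rose by 1.55 ± 0.15 (adjusted p = 3.09e-08). Both separated the groups. The master regulator Foxj1 rose by 0.72 ± 0.11 and the structural genes Tekt1 by 0.82 ± 0.12 and Dynlrb2 by 0.76 ± 0.11, whereas the outer dynein arm genes Dnah5 (0.24) and Dnah9 (0.02) were not called. Tppp3 alone fell (-0.27), a call lost without control replicate 1, 2, 3, 4 or 5 or any exposed array other than replicate 1.

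Of the genes of club cells, the secretory cells of small airways, several xenobiotic enzymes fell and the main secretoglobin was not called. Of 15 markers 7 fell and 3 rose, with a median of -0.50. Differences in the list ran from -1.79 to 2.93, so the largest of them was a rise. Cyp2a3, a lung cytochrome P450, ran from -4.19 to -3.23 in controls (median -3.80) and from -6.44 to -4.63 after exposure (median -5.25), and fell by 1.58 ± 0.37 on the log2 scale (adjusted p = 0.00241) with no overlap. Cyp2f4 (-0.59 ± 0.11), Aldh1a1 (-0.55 ± 0.12) and Fmo2 (-0.87 ± 0.22) fell as well. Scgb1a1, the main secretoglobin, was not called (-0.20, adjusted p = 0.0721), and Scgb3a2 rose by 0.56 ± 0.10.

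The 2 alveolar cell types differed. Of 15 type 1 markers 12 fell and none rose, around a median of -0.38, and the mean over the list ran from -0.09 to 0.09 in controls and from -0.46 to -0.25 after exposure. The changes were small but regular. Cav1, the caveolar coat protein, ran from 3.83 to 4.23 in controls (median 4.03) and from 3.43 to 3.73 after exposure (median 3.61), and fell by 0.43 ± 0.08 (adjusted p = 0.000219), and Rtkn2 fell by 0.48 ± 0.10 and Aqp5 by 0.39 ± 0.08. Cav1 and Rtkn2 separated the groups, but the probes of Rtkn2 disagree, and their mean differed by 0.02386. Ager, the most specific of these genes, was not called (-0.10 ± 0.09, adjusted p = 0.453). Of 24 type 2 and surfactant genes none was called by limma at adjusted p under 0.05. Among them were Sftpc (0.09 ± 0.10), Sftpb (-0.02 ± 0.08), Sftpa1 (0.07 ± 0.08) and the lipid transporter Abca3 (-0.03 ± 0.09). Without Mitsui-7 replicate 1 a single member was called higher, and without replicate 3 a single one lower.

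Genes of epithelial injury and stratified keratins rose for 10 of 37 members. Krt17, a keratin of wound edges and basal-like cells, was above background on no control array and was at least 4.73-fold higher (adjusted p = 2.12e-08), from -5.97 to -4.28 on exposed arrays. Krt14 rose by 1.58 ± 0.26 (adjusted p = 5.92e-05), with -6.83 to -5.27 in controls and -4.99 to -3.31 after exposure. The simple keratins did not join them: Krt8 differed by 0.08 and Krt7 by -0.11, neither called. The tight junction gene Cldn4 rose by 1.74 and Cldn3 differed by -0.12. The single fall, in Gprc5a (-0.22), was lost without control replicate 6.

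Ion and water transport genes went both ways, with 9 rises and 9 falls among 33 members. Aqp3, a water and glycerol channel of basal cells and large airways, ran from -7.24 to -5.87 in controls (median -6.88) and from -3.40 to -2.23 after exposure (median -2.73), a 15.2-fold rise (3.93 ± 0.26, adjusted p = 2.40e-11) with no overlap. Slc26a4, the anion exchanger pendrin, rose by 1.30 ± 0.26. Aqp1, the water channel of capillary endothelium, fell by 0.59 ± 0.07 (adjusted p = 8.85e-07), Aqp5 of type 1 cells by 0.39 and Scnn1a, a subunit of the epithelial sodium channel, by 0.68 ± 0.12.

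Endothelial genes fell together. Of 26 markers 22 fell and none rose, with a median of -0.59, and between 18 and 23 fell as each array was left out. The mean over the list ran from -0.12 to 0.07 in controls and from -1.06 to -0.41 after exposure, and Mitsui-7 replicate 4 was the lowest array. Tek, the angiopoietin receptor, ran from 2.57 to 3.06 in controls (median 2.68) and from 1.49 to 2.14 after exposure (median 1.87), and fell by 0.83 ± 0.09 (adjusted p = 2.18e-07). Eng, a co-receptor for TGF-beta and BMP9 on vessels, ran from -0.39 to 0.60 (median 0.05) and from -1.52 to -0.43 (median -0.63), and fell by 0.89 ± 0.16 (adjusted p = 0.000131). Every exposed rat lay below every control in both. Cdh5, the junctional cadherin, fell by 0.59 ± 0.12, Cldn5 by 0.76 ± 0.12 and Kdr, the main VEGF receptor, by 0.42 ± 0.10. Robo4 did not differ by more than its error (-0.01 ± 0.13).

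Genes that divide vessels by type fell for 11 of 25 members and rose for 1. Capillary genes were among the falls: Car4, a carbonic anhydrase of alveolar capillaries that is also found in alveolar macrophages, ran from 2.02 to 2.52 in controls (median 2.42) and from 1.01 to 1.70 after exposure (median 1.49), and fell by 0.89 ± 0.11 (adjusted p = 1.6031e-06). Apln, of capillary tip-like cells, fell by 0.76 ± 0.13, Vwf by 0.65 ± 0.11 and the lymphatic gene Lyve1 by 0.97 ± 0.15 (adjusted p = 3.25e-05). Each of these 4 separated the groups. The other lymphatic genes Prox1 (-0.17) and Ccl21 (-0.22) were not called. The single rise was in Sele, the selectin of inflamed venules (0.86), while Selp (0.29) and Vcam1 (0.00) were not called.

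Vasoactive peptides and receptors were lower for 17 of 39 members and higher for 4 (median -0.28), with differences from -1.72 to 1.82. The mean over this list ran from -0.20 to 0.14 in controls and from -0.31 to 0.02 after exposure, with overlap. Npr3, the clearance receptor for natriuretic peptides, ran from -2.76 to -1.53 in controls (median -2.35) and from -4.79 to -3.44 after exposure (median -4.15), and fell by 1.72 ± 0.28 (adjusted p = 4.83e-05). Ramp2, the partner of the adrenomedullin receptor, ran from 1.88 to 2.12 (median 1.92) and from 0.71 to 1.40 (median 1.25), and fell by 0.80 ± 0.09 (adjusted p = 4.45e-07). Neither pair of groups overlapped. Ace, the angiotensin-converting enzyme, fell by 0.75 ± 0.13, Npr1 by 0.67 ± 0.10, Ednrb by 0.62 ± 0.12 and the nitric oxide receptor subunit Gucy1a1 by 0.52 ± 0.12. The ligand Edn1 was not called (0.04). In the neuropeptide list Calcb, which encodes a calcitonin gene-related peptide, went the other way: it ran from -5.15 to -3.96 in controls (median -4.85) and from -1.83 to -1.19 after exposure (median -1.47), an 8.86-fold rise (3.15 ± 0.20, adjusted p = 6.53e-12). The neighbouring gene of the same family, Calca, differed by -0.19 (adjusted p = 0.745).

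**Figure D4:**
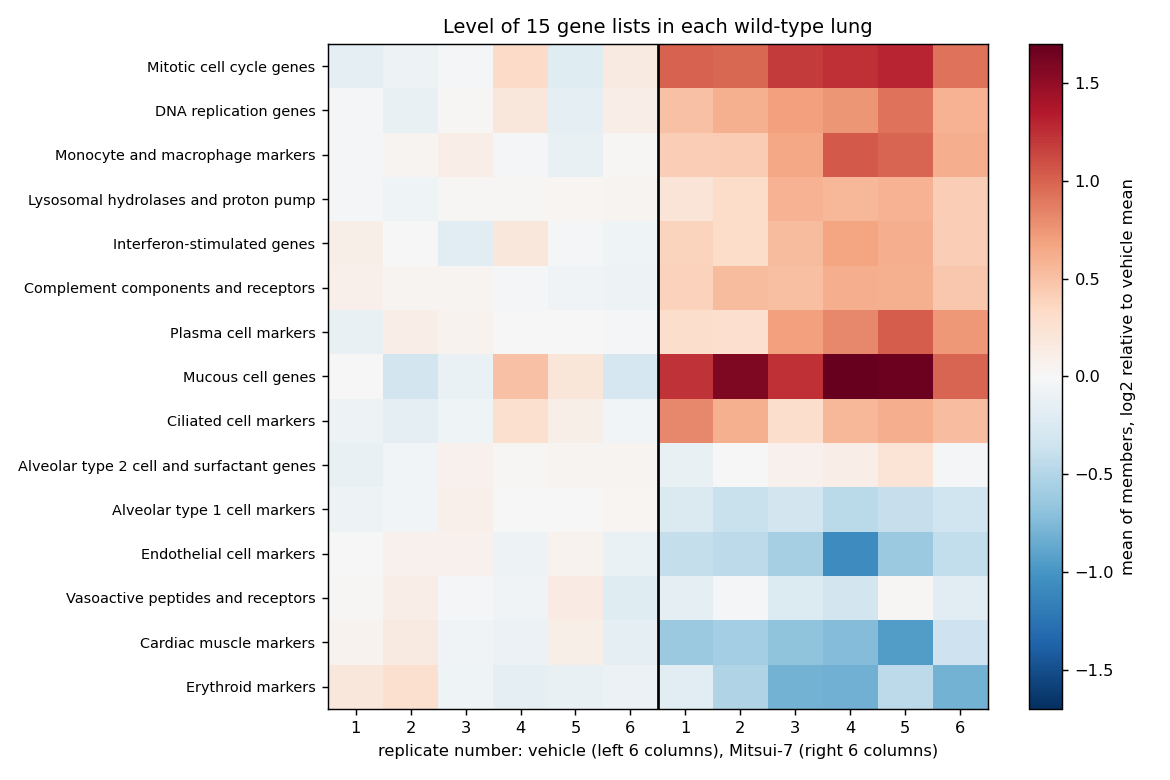
Mean level over the members of 15 gene lists on each of the 12 WT arrays, relative to the mean of the 6 vehicle arrays (log2). Columns are arrays, rows are lists, and the colour gives the level. Macrophage, mitotic and mucous rows are higher on all 6 Mitsui-7 arrays than on any vehicle array, and the endothelial row is lower, with its lowest value on Mitsui-7 replicate 4.

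Markers of heart muscle and of red cells also fell in exposed lungs. Heart muscle surrounds the pulmonary veins of rodents and can also come with the dissected tissue. Of 15 cardiac markers 10 fell and none rose, with a median of -0.75, and the mean over the list ran from -0.16 to 0.15 in controls and from -0.95 to -0.36 after exposure. Myh6, the atrial myosin heavy chain, ran from 1.81 to 2.13 in controls (median 2.03) and from 0.05 to 1.38 after exposure (median 1.07), and fell by 1.15 ± 0.25 (adjusted p = 0.00123). Of 11 erythroid markers 6 fell, with Hbb at -0.78 ± 0.18 and Alas2 at -0.90 ± 0.26, and the list ran from -0.16 to 0.27 in controls and from -0.82 to -0.18 after exposure. Nppa, the atrial hormone, was above background on 2 of 6 arrays in each group. The direction was that of the endothelial and vasoactive genes, and the part of these 2 lists in those results was not tested. Array by array the lists differed: the cardiac list was lowest on Mitsui-7 replicate 5 (-0.95) and the endothelial list on replicate 4 (-1.06). Fibroblast markers (1 of 18 higher, 4 lower, median -0.06) and smooth muscle markers (none of 18 higher, 5 lower, median -0.18) moved less.

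Of 30 collagens 7 rose and 3 fell around a median of 0.03. Both chains of type I collagen rose, Col1a1 by 0.71 ± 0.13 and Col1a2 by 0.38 ± 0.08, and Col3a1 ran from 1.91 to 2.35 in controls (median 2.10) and from 2.54 to 2.86 after exposure (median 2.76), a rise of 0.61 ± 0.08 (adjusted p = 4.56e-06). Of the type IV chains Col4a4 fell by 0.46, and Col4a1 was not called (-0.26, adjusted p = 0.0652). Without Mitsui-7 replicate 2 or 6, 6 or 5 collagens were called lower. Fn1, fibronectin, ran from 1.61 to 2.19 in controls (median 1.85) and from 2.84 to 3.26 after exposure (median 3.02), a 2.25-fold rise (1.17 ± 0.11, adjusted p = 1.21e-08), and every exposed rat lay above every control. Vcan, a large hyaluronan-binding proteoglycan, rose by 1.06 ± 0.14 and Cthrc1, a marker of activated fibroblasts, by 1.23 ± 0.20. Eln (0.13), Postn (-0.18) and Ccn2 (-0.17) were not called, and the stabilising matrix proteins Vtn (-0.84 ± 0.17) and Fbln2 (-0.72 ± 0.13) fell. Over the whole matricellular list 9 of 44 members rose and 9 fell.

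Matrix-degrading enzymes had the larger rises. Of 36 metalloproteinases and inhibitors 11 rose and 5 fell. Mmp12, macrophage elastase, ran from -4.18 to -3.21 in controls (median -3.78) and from -0.93 to 1.21 after exposure (median 0.69), a 17.4-fold rise (4.12 ± 0.27, adjusted p = 1.78e-11) with no overlap. Mmp3, stromelysin, was above background on no control array and was at least 7.42-fold higher (adjusted p = 1.32e-10). Timp1, the inducible inhibitor, rose by 0.98 ± 0.10 and Timp3, the matrix-bound one, fell by 0.37 ± 0.09. Mmp2 was not called (0.13, adjusted p = 0.353).

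Of 46 genes of TGF-beta and BMP signalling 6 rose and 11 fell. Inhba, the activin A subunit, ran from -4.47 to -3.99 in controls (median -4.33) and from -2.16 to -1.71 after exposure (median -1.83), a 5.29-fold rise (2.40 ± 0.16, adjusted p = 2.50e-11). The ligand Tgfb1 (0.67 ± 0.10) and its receptor Tgfbr1 (0.88 ± 0.10) rose, and Tgfb2 (0.09) and Tgfb3 (0.01) were not called. Among the members that fell were Bmp6 (-0.66 ± 0.13), the receptor Acvrl1 (-0.68), and the feedback inhibitors Smad6 (-0.93) and Smad7 (-0.49 ± 0.11). Growth factor genes fell for 16 of 54 members and rose for 2, with Igfbp6 (-1.02), Gdnf (-0.64 ± 0.17) and Vegfa (-0.38) among the falls.

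Genes of xenobiotic metabolism fell, and antioxidant genes went both ways. Of 33 genes of the aryl hydrocarbon receptor and drug metabolism 17 fell and 2 rose, with a median of -0.36. Ahrr, the receptor's own repressor, ran from -5.10 to -3.76 in controls (median -4.51) and from -6.28 to -4.997 after exposure (median -5.88), and fell by 1.34 ± 0.27 (adjusted p = 0.000744), with a slight overlap. Cyp1a1, the classical target of the receptor, was well above background on 5 of 6 control arrays and on 1 of 6 exposed arrays. Its difference was -2.76 ± 0.79 (adjusted p = 0.0125), taken mostly from exposed arrays not well above background, and its call was lost with normexp background correction. Fmo1 (-0.81 ± 0.15), a flavin mono-oxygenase, fell too, while the receptor Ahr (-0.14) and Cyp1b1 (0.14) were not called. The Ahrr promoter (chr1:30821969-30822218, plus strand, RefSeq on GRCr8) is shown because the receptor is known to act on this gene through GCGTG, the xenobiotic response element, found at 142, 117 and 57 bases before the start. Over the list the element was in 3 of 15 called falls with a promoter (20%), in 6 of the 14 other members (42.9%) and in 29.7% of all promoters.
Ahrr: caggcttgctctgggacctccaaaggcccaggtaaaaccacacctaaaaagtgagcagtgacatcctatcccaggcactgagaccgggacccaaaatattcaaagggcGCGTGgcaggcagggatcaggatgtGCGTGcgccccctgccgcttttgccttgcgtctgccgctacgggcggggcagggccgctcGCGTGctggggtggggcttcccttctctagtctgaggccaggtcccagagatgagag

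Of 38 NRF2 targets and glutathione genes 7 rose and 10 fell, with a median of 0.02. Slc7a11, the cystine importer, stood apart from the rest of its list: it ran from -6.9992 to -5.98 in controls (median -6.27) and from -3.54 to -2.31 after exposure (median -2.89), a 12.3-fold rise (3.62 ± 0.29, adjusted p = 7.95e-10) with no overlap. The next largest called member, Srxn1, rose by 0.56 ± 0.13. The usual reporters of the pathway, Nqo1 (-0.06, adjusted p = 0.762), Gclc (0.12) and Txnrd1 (0.13), were not called, and the glutathione transferase Gsta3 fell by 1.02 ± 0.20. In the list of oxidases, nitric oxide and arginine metabolism 11 of 30 members rose and 3 fell. Duox2, the epithelial hydrogen peroxide source, rose by 3.15 ± 0.44 (adjusted p = 6.64e-06, 1 of 6 control arrays above background) and Nos2 by 1.21 ± 0.29 (adjusted p = 0.00291, 1 of 6 control and 5 of 6 exposed arrays), while the endothelial synthase Nos3 fell by 0.57 ± 0.14.

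Lipid mediators and energy metabolism also changed. Pla2g7, the phospholipase that degrades platelet-activating factor, ran from -2.99 to -2.45 in controls (median -2.70) and from -0.32 to 0.85 after exposure (median 0.41), an 8.02-fold rise (3.00 ± 0.18, adjusted p = 4.74e-12). Pla2g10, a secreted phospholipase of epithelium, rose by 2.99 ± 0.23 (adjusted p = 2.54e-10). Along the prostaglandin path Ptgs2 (0.86 ± 0.16), Ptges (0.98 ± 0.22) and Tbxas1 (0.83 ± 0.13) rose, and the leukotriene enzymes Alox5 (-0.21) and Ltc4s (0.10) were not called. In all 9 of 30 eicosanoid genes rose and 4 fell. None fell without Mitsui-7 replicate 4, 1 without control replicate 3 and 2 without control replicate 5 or Mitsui-7 replicate 1 or 6. Of 34 glycolytic and hypoxia-responsive genes 13 rose and 2 fell. The hexokinases Hk3 (0.93 ± 0.21) and Hk2 (0.79 ± 0.12) and the glucose transporter Slc2a1 (0.61 ± 0.11) rose, and Pgk1 was not called (0.15, adjusted p = 0.0743). Cholesterol synthesis genes rose for 10 of 23 members with none lower, such as Sqle (0.76 ± 0.14), but for 5 without control replicate 2 and for 6 without control replicate 3 or Mitsui-7 replicate 2 or 4. One fell without control replicate 2.

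Of 26 coagulation genes 9 rose and 5 fell. F10, coagulation factor X, was above background on no control array and was at least 4.10-fold higher (adjusted p = 3.34e-06). F3, tissue factor, rose by 0.66 ± 0.12 and Plau, urokinase, by 0.99 ± 0.13. Thbd, thrombomodulin of endothelium, fell by 0.61 ± 0.14.

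Of the 5 slides 4 held both WT groups. The lists were chosen with results of these same arrays known, so their values within slides are a description. The median over mitotic genes was 1.24, 1.38, 1.03 and 0.98 on slides 2 to 5, with 1 or 2 arrays per group on each. Over macrophage markers it was 0.63, 0.55, 1.37 and 0.72, over endothelial markers -0.50, -0.50, -0.97 and -0.48, and over cardiac markers -0.80, -0.72, -0.74 and -0.68. Over interferon-stimulated genes it was 0.08, 0.32, 0.36 and 0.51.

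**Figure D5:**
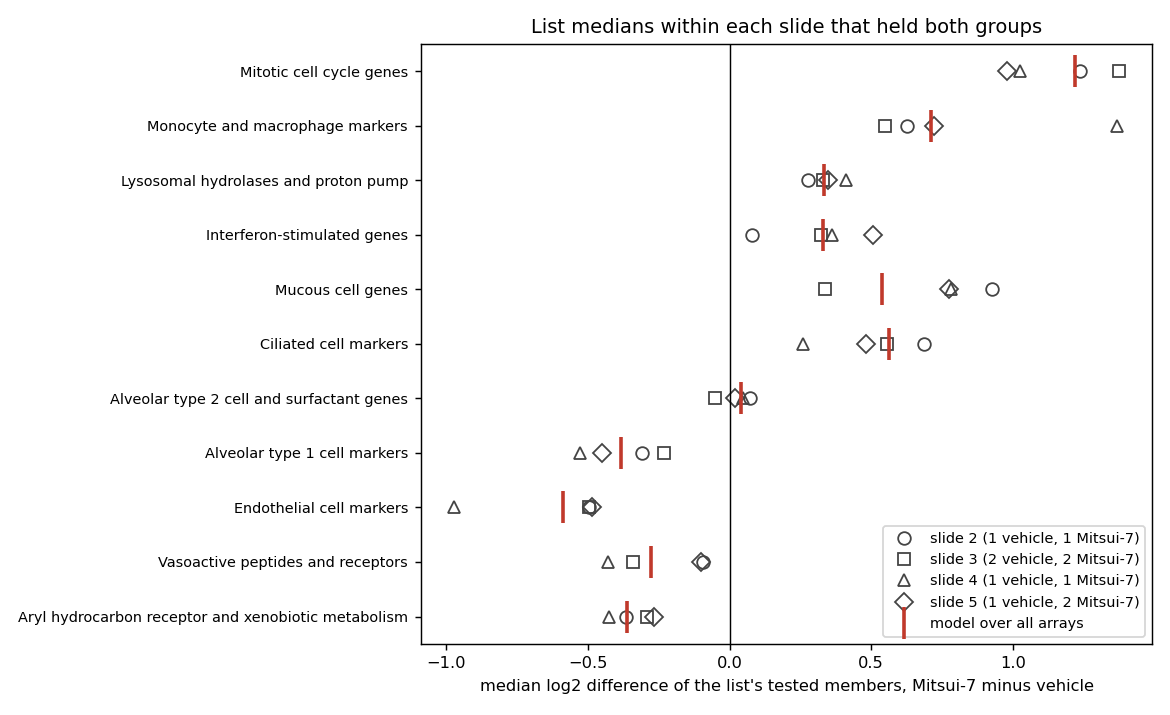
Median Mitsui-7 minus vehicle difference (log2) over the members of 11 gene lists, within each of the 4 slides that hold both WT groups and in the model with slide as a block. Each slide gives 1 point per list. The mitotic list lies between 0.98 and 1.38 and the endothelial list between -0.97 and -0.48.

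Against NM-403 in WT rats the response to Mitsui-7 was tested directly, with the same model. The contrast called 1538 genes (6.28%), 1110 higher after Mitsui-7 and 428 lower, and its median over all genes was 0.03. The share of higher among these calls was 72.17%, and it was 51.3% after quantile normalization and 32.81% with each array centred on its median. With the authors' deposited log2 values, over a smaller set of 9803 genes, it was 35.8%. The comparisons with vehicle and with NM-403 share the Mitsui-7 arrays, so their values are given side by side. Of 27 mucous cell genes 8 were higher and 2 lower after Mitsui-7. Clca1 ran from -4.46 to -2.40 after NM-403, below every Mitsui-7 array (4.01 ± 0.49, adjusted p = 4.80e-06), and Agr2 from -2.70 to -1.86 (2.05 ± 0.15, adjusted p = 1.28e-09), with -3.33 to -2.01 under vehicle. Fn1 ran from 1.58 to 1.98 after NM-403 and was higher after Mitsui-7 by 1.24 ± 0.11 (adjusted p = 3.83e-08), and Inhba ran from -4.26 to -3.74 and was higher by 2.10 ± 0.16 (adjusted p = 2.84e-09). For both genes the NM-403 arrays overlapped those of the vehicle.

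S100a9, Orm1 and Lcn2 were lower after Mitsui-7 than after NM-403. S100a9 ran from 2.72 to 4.21 after NM-403, above every Mitsui-7 array (-2.69 ± 0.31, adjusted p = 1.67e-06). Orm1, the acid glycoprotein, ran from -4.05 to -2.45 (-3.46 ± 0.45, adjusted p = 9.92e-06) and Lcn2, a siderophore-binding lipocalin, from 4.26 to 5.24 (-1.24 ± 0.21, adjusted p = 0.000368). Of 16 neutrophil markers 5 were lower and 1 higher after Mitsui-7, and of 15 acute phase genes 4 were lower and 3 higher. Over all genes 6.28% were called in this contrast.

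Of 54 mitotic genes 4 were higher after Mitsui-7, around a median of 0.26, and Cdk1 differed by 0.25 (adjusted p = 0.376). That count is near the share of all genes called in this contrast, 6.28% in either direction. Chia ran from 4.10 to 5.17 after NM-403 and differed by 0.06 ± 0.14 (adjusted p = 0.849), and Ccl7 by 0.11 ± 0.32 (adjusted p = 0.880). Spp1 ran from 1.02 to 1.45 after NM-403, between vehicle and Mitsui-7 without overlap with either, and was higher after Mitsui-7 by 2.22 ± 0.32 (adjusted p = 4.91e-05). Endothelial markers were lower after Mitsui-7 for 6 of 26 members, with Tek at -0.46 ± 0.09 (adjusted p = 0.00215).

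Whether the p53 genotype altered the response was tested as an interaction, the Mitsui-7 effect in p53het rats minus that in WT rats. No gene was called by limma (0%), and 1644 of 24473 had an unadjusted p under 0.05. The difference of effects was 0.28 ± 0.45 for Spp1 (adjusted p = 0.957), -0.21 ± 0.23 for Ccnb1 (adjusted p = 0.919), 0.01 ± 0.13 for Tek (adjusted p = 0.995) and 0.41 ± 0.68 for Clca1 (adjusted p = 0.959). The effect in p53het rats was 6.59 ± 0.32 for Spp1, 1.40 ± 0.16 for Ccnb1 and -0.82 ± 0.09 for Tek. With 6 rats a group these errors leave room for differences of a size that the model could not call.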

How the data were processed

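Each array held 62976 spots (4259 controls) for 45598 probes and 34766 gene names. The deposited intensity values are Agilent Feature Extraction 12.0.1.1 processed signals of 1 colour, Cy3, per the file headers; these are background-corrected by that software. The deposited log2 values of the whole series (11555 rows, of which 11545 match probes) correlated with the scanner signals at r = 0.995 to 0.999 across probes of an array, with column medians from -0.083 to 0.069; how the authors centred them is not stated, and they were used as an alternative.

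From the intensities, log2 signal minus the 75th percentile over non-control spots was computed, spots of a probe were averaged, and each gene took its probe with the highest mean. A gene was kept with detection on 5 or more arrays and 3 or more measured values in each group. All 35 arrays were fitted in limma 3.58.1 (R 4.3.3) with a mean per group and slide as a block, with Benjamini-Hochberg adjustment and a threshold of 0.05. An array is 1 rat, and the number of arrays limits the precision. The model was checked on simulated data. Probes of near-identical family members may not tell them apart.

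The members and the 71 gene lists (1682 genes tested) were chosen with earlier results of these data known. Genes named are the 20 largest called rises and falls with a symbol detected throughout the group with the higher level (10 for the other contrasts), of which examples are given, and members of the lists. Lists are described by counts and medians beside the share over all genes, with no set test. Promoters, from 250 bases before to 50 after each start, came from RefSeq on GRCr8.

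Replicate numbers are shared between groups and were not taken to pair the rats. Deviations of same-numbered control and Mitsui-7 arrays from their group means had a mean correlation of 0.078 (-0.248 to 0.393 over 6 pairs). For other pairs it was -0.014 (-0.476 to 0.432 over 30 pairs). These ranges are too wide to tell whether the numbers pair rats. Alternatives changed the slide term, scaling, background, filter, probe rule, arrays in the fit, array weights and replicate block, and left out each array and slide. Some members of the lists are counted but not reported by name here.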

Additional observations from a re-analysis of the deposited data

Results flagged for a closer look

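In groups of 6 arrays, the gap between an extreme array and its nearest neighbour was set against the group's range, by Dixon's ratio for 6 values. Of 654 such groups 30 passed it (4.59%), and chance passes about 1 in 20. Only values are given here, since no explanation was tested.

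Among Mitsui-7 arrays, replicate 5 was highest in the percent of spots above background (0.825, at 86.4%). It was also highest in the mean level of the T cell list (0.737), the interleukin-1 list (0.702) and the coagulation list (0.756), and in Cd86 (0.648), and lowest in Ahr (0.640) and Lrrc10 (0.722). Replicate 4 was lowest in the endothelial list (0.657, at -1.06), Aqp1 (0.802), Acvrl1 (0.701) and Thbd (0.689) and highest in Rnase3 (0.794). Replicate 1 was lowest in Mmp7 (0.776) and Retnla (0.744), and replicate 2 highest in Krt14 (0.787) and Lcn2 (0.714).

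Among vehicle arrays, replicate 3 was highest in Apln (0.705), Ctss (0.6254) and Tek (0.642) and lowest in Ifit3 (0.629) and Mdm2 (0.715). Replicate 4 was highest in Ccnb1 (0.675) and Prss30 (0.765) and lowest in Thbd (0.790). Replicate 1 was lowest in Ucp3 (0.720) and highest in the list of epithelial injury and keratins (0.871) and that of oxidases and nitric oxide (0.648). Replicate 2 was lowest in Hk3 (0.744) and highest in the TGF-beta and BMP list (0.675), and replicate 6 highest in RT1-O1 (0.842).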

How the results depend on the processing

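The count of 5432 genes called against vehicle was 3420 with no slide term, 3363 with the authors' deposited values (9803 genes tested), 3571 from the 12 arrays alone, and 3136 and 3554 without slide 3 and slide 4. It lay between 3755 (without Mitsui-7 replicate 4) and 5515 as each array was left out. Against NM-403, the count of 1538 was 813 with no slide term, 2615 with array medians, 808 with normexp background, and 1024, 1012, 940 and 742 without slides 1, 3, 4 and 5; it lay between 1059 and 1746 as arrays were left out. The interaction called 0 genes, but 2 with slide as a random block, 3 with the authors' values, 19 with array weights and 0 to 2 as arrays were left out. Some of these fits held fewer genes, arrays or slides, and the cause of the differences was not tested.

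Of 202 called genes in the text or among the largest changes, 153 were called under every alternative that could be run. The sign turned with the authors' values for Icos (-0.1512) and Igsf1 (0.4354). There each gene took its highest probe among the deposited rows, which may be another probe than the one used here. With the mean over probes the sign turned for Rtkn2 (0.02386), whose probes disagree. The number of members called higher minus lower changed sign with the authors' values for 6 lists, of which those values hold only part. These were chemokine receptors (-2, with 8 of 20 members), other cytokines (-4, 16 of 42) and metallothioneins and zinc transporters (-1, 9 of 13). The others were coagulation (-2, 8 of 26), metalloproteinases (-1, 14 of 36) and neuropeptides (-2, 4 of 29). The number also changed sign with array medians for other cytokines (-3), collagen processing (-3), p53 targets (-1) and the unfolded protein response (-1). It did so with quantile normalization for other cytokines (-1) and metallothioneins (-1), and with array weights for other cytokines (-1). For collagen processing it was -2 without slide 2 and -2 to 2 as arrays were left out.

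With the replicate number as a block the counts were 5460, 1472 and 0, and whether the numbers pair rats could not be told. Genes near background have only bounds, and with 6 rats a group small differences may be missed.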
